A study of Mus musculus with 4 samples.

Results

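Myosin light chains and the kinases that phosphorylate them were followed in mouse primary myotubes treated with EDA-A2. The genes were chosen by name: the essential light chains Myl1, Myl3, Myl4, Myl6 and Myl6b, the regulatory light chains Myl2 and Mylpf, and the kinases Mylk, Mylk2 and Mylk4, 10 of the 53647 genes counted. All 4 libraries were made from WT myoblasts isolated from limb muscles of pups 2 to 3 days old, differentiated for 48 h and harvested at 72 h. The 2 EDA-A2 libraries came from myotubes given recombinant EDA-A2, a ligand of the TNF superfamily that binds the receptor EDA2R, at 250 ng/mL for the last 24 h, and the 2 Control libraries were labelled Control at the same time point. Polyadenylated RNA was sequenced in pairs, and the tables held 29444155 to 29746863 counts on genes per library. Nothing stated that the 2 libraries of a condition came from separate cultures or animals, so p-values measure only the spread between these libraries, which may be technical.

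Each myosin motor is a pair of heavy chains, and each heavy chain neck carries an essential and a regulatory light chain. Essential chains stiffen the neck, whereas the regulatory chain is phosphorylated by calmodulin-dependent light chain kinases, which in skeletal muscle strengthens contraction and in smooth muscle and non-muscle cells switches the motor on. Muscle fibres exchange light chain isoforms during development and between fast, slow and cardiac types.

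The promoters of 3 light chains with called falls, Mylpf, Myl1 and Myl4, and of the kinase Mylk4 are shown as examples of a called and an uncalled group, and the windows of the other members are given by their counts. Each window is RefSeq sequence, from 250 bases before to 50 bases after the start site, taken from a table built on GRCm38.p6 and placed on GRCm39 by a single exact match within the gene's region. Capitals mark E-boxes (CANNTG, which reads as CANNTG on both strands), the core letters bound by myogenic basic helix-loop-helix factors. Mylpf lay at chr7:126810530-126810829 on the plus strand, Myl1 at chr1:66984166-66984465 on the minus strand, Myl4 at chr11:104441239-104441538 on the plus strand and Mylk4 at chr13:32967898-32968197 on the minus strand.
Mylpf: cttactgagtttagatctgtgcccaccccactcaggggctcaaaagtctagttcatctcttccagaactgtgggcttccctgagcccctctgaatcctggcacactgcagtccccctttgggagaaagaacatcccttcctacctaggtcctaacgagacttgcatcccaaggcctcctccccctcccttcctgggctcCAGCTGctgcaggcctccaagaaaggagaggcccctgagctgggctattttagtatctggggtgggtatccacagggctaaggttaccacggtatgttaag
Myl1: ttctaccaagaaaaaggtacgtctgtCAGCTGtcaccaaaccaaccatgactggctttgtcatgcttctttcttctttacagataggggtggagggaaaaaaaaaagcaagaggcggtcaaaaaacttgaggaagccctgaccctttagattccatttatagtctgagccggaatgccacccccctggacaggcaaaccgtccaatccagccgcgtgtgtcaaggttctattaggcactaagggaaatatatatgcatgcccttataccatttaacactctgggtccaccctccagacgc
Myl4: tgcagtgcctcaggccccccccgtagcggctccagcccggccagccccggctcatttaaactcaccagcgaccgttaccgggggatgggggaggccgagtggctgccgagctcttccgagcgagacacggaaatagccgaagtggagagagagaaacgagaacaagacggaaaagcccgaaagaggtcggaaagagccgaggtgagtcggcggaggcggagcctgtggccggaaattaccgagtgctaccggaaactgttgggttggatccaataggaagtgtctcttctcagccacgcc
Mylk4: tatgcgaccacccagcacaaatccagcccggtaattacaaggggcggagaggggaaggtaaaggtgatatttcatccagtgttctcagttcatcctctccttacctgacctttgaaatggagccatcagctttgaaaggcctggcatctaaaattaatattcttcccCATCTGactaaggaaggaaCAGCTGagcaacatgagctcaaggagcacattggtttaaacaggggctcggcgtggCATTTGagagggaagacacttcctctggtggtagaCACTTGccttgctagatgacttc
The Mylpf window held 1 E-box, at position -51 from the start site. Myl1 also held 1, at -224, together with the TEAD motif CATTCC at -80 and TATAAA at -95, both searched on both strands. No E-box was found in the Myl4 window, and Mylk4 held 4, with a MEF2 motif at -103. E-box content of these windows did not follow the calls in every case: the uncalled kinase Mylk held 0 and the called light chain Myl6b held 2. The annotation lists 17 start sites for Myl1, 19 for Myl4, 10 for Mylpf, 6 for Mylk4 and 8 for Mylk. Which start sites the counted RNA used was not tested, so a window need not be the promoter in use. Across the 11 windows listed for 9 of the members, 8 held an E-box, beside 72.3% of 32851 mouse promoters of the same length, and 17.6% of these promoters held 3 or more. Of the 11 windows, 3 held CATTCC, beside 14.7% of all promoters, and 2 held TATAAA, beside 13.6%. The MEF2 motif was in 1, beside 3.19%, and a CArG box in 2, of Myl3 and Myl6, beside 1.63%. A kappaB motif was in none of the members' windows, beside 8.46% of all promoters. A match is a description of the letters and was not tested as a binding site.

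Expression of the light chains was lower after EDA-A2, and none of the 3 kinases passed the test. Of the 10 members, 9 had enough counts to be tested by edgeR's quasi-likelihood method, with p adjusted after Benjamini and Hochberg over all 15173 genes tested. Of these 9, 5 were called lower, at an adjusted p under 0.05, and 0 higher. At an unadjusted p under 0.05, 6 were lower and 1 higher, beside 1218 lower and 1154 higher of all 15173 genes tested. A DESeq2 Wald test also called 5 lower and 0 higher. Among all genes tested, 2.13% were called lower, 2.45% higher and 4.57% in either direction. All 5 called genes were light chains (Mylpf, Myl4, Myl6, Myl6b and Myl1), and they fell by 16.4% to 28.5%. The median log2 fold change was -0.32 over the 6 light chains tested and 0.10 over the kinases, beside -0.00 over all genes tested. In 7 of the 9 members the EDA-A2 libraries did not overlap the Control libraries, beside 45% of all genes tested.

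**Figure D1:**
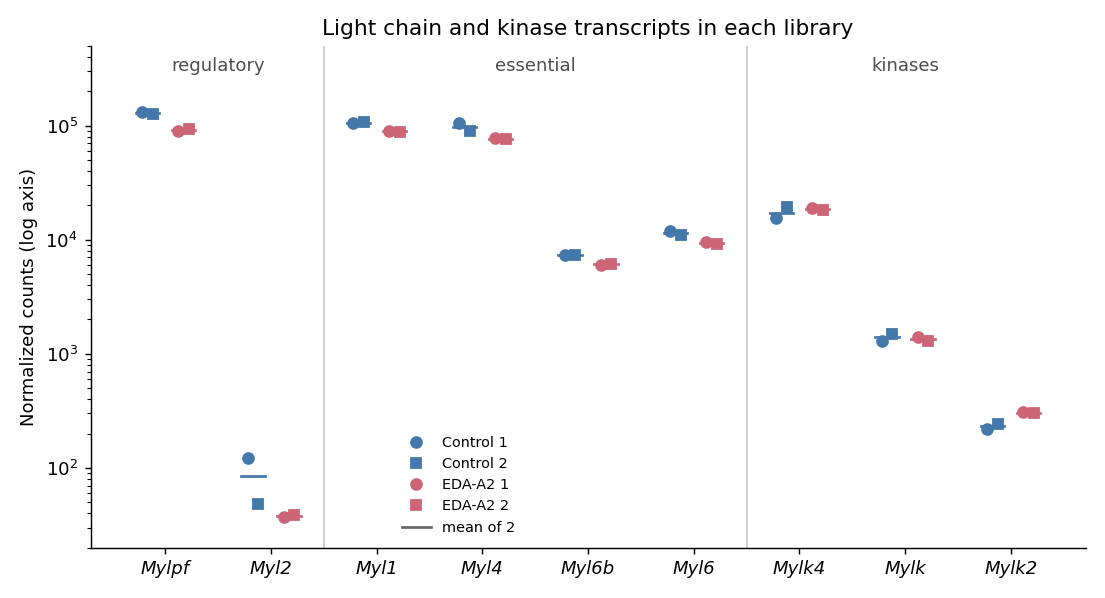
Normalized counts (log axis) of the 9 members with counts, in each of the 4 libraries; circles and squares are replicates 1 and 2, blue is Control, red is EDA-A2, and lines are means of 2. Mylpf, Myl1, Myl4, Myl6 and Myl6b sit lower in both EDA-A2 libraries, Mylk2 sits higher, Mylk and Mylk4 overlap, and Control 1 stands apart for Myl2.

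Mylpf (ENSMUSG00000030672, chr7:126807207-126813470 on GRCm39) encodes the regulatory light chain of fast skeletal muscle. Its normalized counts, scaled to a common effective library size, were 133108 and 125447 in Control and 90553 and 94263 after EDA-A2. The lowest Control library was above both treated libraries. The log2 fold change was -0.48 (SE 0.07, 95% interval -0.64 to -0.33, adjusted p = 0.000943), and Mylpf took 0.428% of all counts in Control and 0.318% after EDA-A2.

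Myl1 and Myl4 encode the main essential light chains of the young myotube. Myl1 (ENSMUSG00000061816, chr1:66963454-66984642) is the fast skeletal gene, and its normalized counts were 105845 and 107359 in Control against 89323 and 88845 after EDA-A2. The conditions were well separated beside the small spread within each, and the log2 fold change was -0.26 (SE 0.07, 95% interval -0.41 to -0.11, adjusted p = 0.0475), which was just inside the threshold. Myl4 (ENSMUSG00000061086, chr11:104440903-104486603) is the embryonic and atrial gene. It had 105262 and 89877 normalized counts in Control and 77740 and 76199 after EDA-A2, so that the 2 Control libraries differed from each other by more than the treated ones did. The conditions still did not overlap, and Myl4 changed by -0.34 on the log2 scale (SE 0.08, 95% interval -0.52 to -0.17, adjusted p = 0.0246). Its size depended on the Control library kept, with -0.22 without Control replicate 1 and -0.45 without Control replicate 2, neither of them called.

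Myl6b and Myl6 are neighbours on chromosome 10. Myl6b (ENSMUSG00000039824, chr10:128330020-128334772) encodes an essential chain of slow and embryonic skeletal muscle, with 7337 and 7338 normalized counts in Control and 6044 and 6192 after EDA-A2. The 2 Control values were nearly equal, and the log2 fold change was -0.26 (SE 0.07, 95% interval -0.40 to -0.12, adjusted p = 0.0313). Myl6 (ENSMUSG00000090841, chr10:128320267-128330014) encodes the essential chain of smooth muscle and non-muscle myosin, and had 12046 and 11035 normalized counts in Control against 9555 and 9241 after EDA-A2. Both treated libraries lay below both controls, with a log2 fold change of -0.30 (SE 0.07, 95% interval -0.45 to -0.15, adjusted p = 0.0238). All 4 detected essential chain genes, sarcomeric and non-muscle, were thus called lower. Sequence of at least 97% identity over at least 100 bases lies elsewhere in the genome for 95.4% of the canonical Myl6 transcript and 59.5% of the Myl1 transcript, and pairs that did not map uniquely were not counted. Counts of Myl6 and Myl1 are therefore less certain than those of the other members, for which no such copy was found.

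The chains of slow and ventricular muscle, Myl2 and Myl3, were rare or not detected. Myl2 (ENSMUSG00000013936, chr5:122238848-122251545), the regulatory chain of slow and ventricular muscle, had 118 and 48 counts in Control, against 38 and 39 after EDA-A2. Control replicate 1 stood apart from the other 3, and although the conditions did not overlap, Myl2 was not called (log2 fold change -1.16, SE 0.36, 95% interval -1.93 to -0.40, adjusted p = 0.0861). Without Control replicate 1 the value was -0.35 (adjusted p = 0.516). Myl3 (ENSMUSG00000059741, chr9:110570929-110599396), the essential chain of slow and ventricular muscle, had 0 counts in all 4 libraries, which allows up to 3 counts in each and covers counting error only. Among the cardiac markers, Nppa was also at 0 in every library, whereas Tnnt2, Myh6 and Tnni3 were detected. Tnnt2 had 46593 to 64292 normalized counts.

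**Figure D2:**
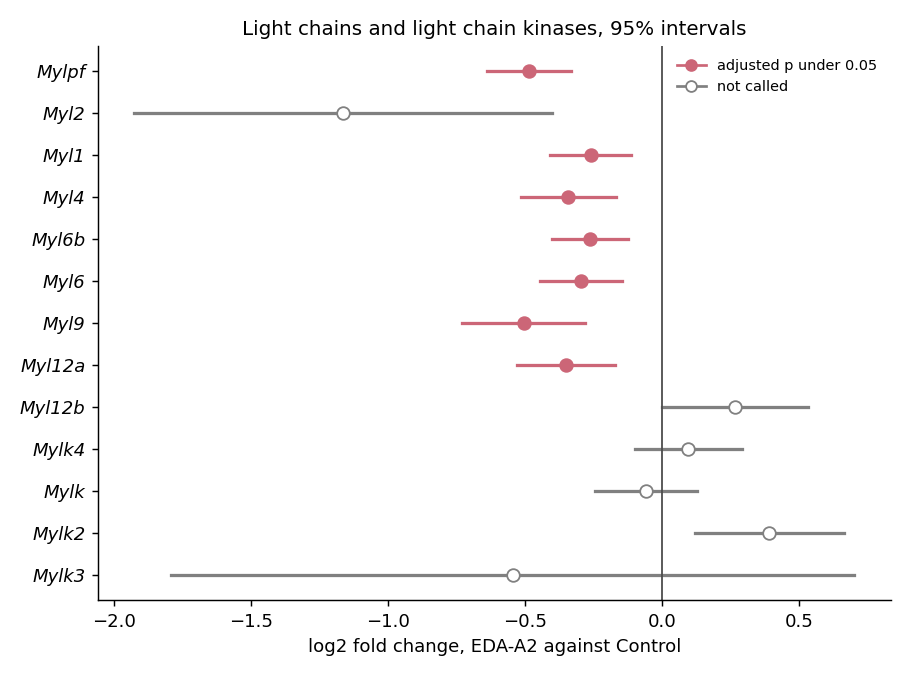
Log2 fold change, EDA-A2 against Control, with 95% intervals, for the 9 members tested and for Myl9, Myl12a, Myl12b and Mylk3; filled red points passed an adjusted p of 0.05 in edgeR's quasi-likelihood test. The 7 called genes are all light chains, at -0.26 to -0.50, while the kinases and Myl12b lie on both sides of 0 and were not called.

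None of the light chain kinases was called. Mylk2 (ENSMUSG00000027470, chr2:152753232-152766628), the skeletal muscle light chain kinase, had 219 and 244 normalized counts in Control and 308 and 301 after EDA-A2. Both treated libraries were above both controls, but the log2 fold change of 0.39 (SE 0.13, 95% interval 0.12 to 0.66) did not pass the adjustment (adjusted p = 0.109). Mylk4 (ENSMUSG00000044951, chr13:32884810-32968052), a kinase of the same family, had 15358 and 19306 in Control and 18940 and 18140 after EDA-A2. The Control libraries spanned both treated ones, and the log2 fold change was 0.10 (SE 0.09, 95% interval -0.10 to 0.29, adjusted p = 0.702). Mylk (ENSMUSG00000022836, chr16:34565580-34822790), the smooth muscle and non-muscle kinase, had 1295 and 1498 in Control and 1400 and 1286 after EDA-A2. The conditions overlapped again, with a log2 fold change of -0.06 (SE 0.09, 95% interval -0.24 to 0.13, adjusted p = 0.847). The sign of Mylk4 turned without Control replicate 1 (-0.057), and that of Mylk without Control replicate 2 (0.053) or without EDA-A2 replicate 2 (0.0015). These intervals do not show that the kinases were unaffected.

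The calls did not hold without both Control libraries. A fit with a library left out has a single library in that condition, so only effect sizes are given here. The log2 fold change of Mylpf was -0.44 without Control replicate 1 and -0.53 without Control replicate 2. It was -0.45 without EDA-A2 replicate 1 and -0.51 without EDA-A2 replicate 2. Scaling by total counts ended the calls of Myl1, Myl6 and Myl6b (adjusted p = 0.0922, 0.0592 and 0.0881), and without the filter on low counts Mylpf alone was called (0.0357). Myl1 also lost its call when at least 10 counts were required in every library (adjusted p = 0.0641).

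Levels were compared between genes as TPM, the counts divided by the length of the canonical transcript and scaled to the same total in every library. In Control, Mylpf had the highest mean level, 14056 ± 386 TPM (SD, n = 2), followed by Myl4 at 8613 ± 836, Myl1 at 7514 ± 184, Myl6 at 1381 ± 65.6 and Myl6b at 489 ± 7.13. Mylk4 reached 233 ± 40.9 TPM, and Mylk, Myl2 and Mylk2 were far lower, at 14.9 ± 1.75, 8.51 ± 5.08 and 4.17 ± 0.373. The lower end of this order is not firm: the spread of Myl2 took its 2 Control libraries from 12.1 to 4.92 TPM, and after EDA-A2 Mylk2 (5.79 ± 0.195) stood above Myl2 (4.02 ± 0.0117). Nor are 2 other places, since with the length of all exons combined Myl1 stood above Myl4 in Control (6167 ± 137 against 2403 ± 239 TPM), and the means of Mylk4 stood above those of Myl6b (346 ± 59.9 against 328 ± 4.06 TPM in Control, 391 ± 18.2 against 290 ± 0.323 after EDA-A2).

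The makeup of the essential class overlapped between conditions. On combined exon lengths, Myl1 made up 65.2% ± 2.32 of essential chain TPM in Control and 66.2% ± 0.195 after EDA-A2, and Myl4 made up 25.4% ± 2.19 and 24.4% ± 0.181 (SD, n = 2 each). Myl6 took 5.90% and 5.85%, and Myl6b 3.47% and 3.52%. With canonical lengths Myl4 was the larger share, at 47.8% in Control and 46.5% after EDA-A2, and Myl1 made up 41.8% and 43.0%, so which chain is the majority depends on the length used. On combined exon lengths each of these 4 shares overlapped between Control and EDA-A2 libraries, with exact permutation p of 0.667 for Myl6b and 1 for the others. The regulatory class summed here held the members Mylpf and Myl2 and the other family genes Myl7, Myl9, Myl10, Myl12a and Myl12b. Mylpf made up 97.9% ± 0.0888 of its TPM in Control and 97.7% ± 0.0243 after EDA-A2, again on combined exon lengths. The exact permutation p was 0.333, the smallest that 2 against 2 libraries allow. Most of the rest was Myl12a, at 1.74% in Control and 1.91% after EDA-A2. With canonical lengths the Mylpf share was 96.7% in Control and 96.3% after EDA-A2.

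Summed over Myl1, Myl2, Myl3, Myl4, Myl6b and Mylpf, sarcomeric light chains took 1.15% and 1.10% of counts on genes in Control, against 0.914% and 0.908% after EDA-A2. The mean fell by 19.3%, more than the spread within either condition, with an exact permutation p of 0.333, the smallest possible. The 9 sarcomeric heavy chain genes, the motors that carry these chains, took 1.33% and 1.31% in Control and 0.997% and 0.924% after EDA-A2. Light chain counts per 100 heavy chain counts were 86.8 and 84.1 in Control and 91.6 and 98.3 after EDA-A2, so the heavy chains were lower by the larger proportion in these libraries (exact permutation p = 0.333).

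**Figure D3:**
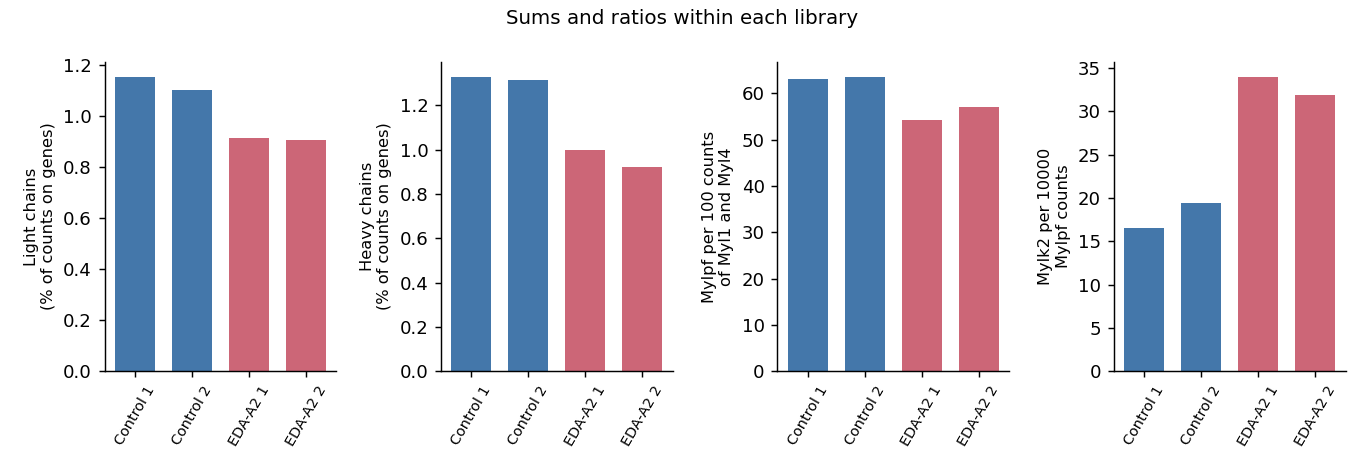
Bars give, for each library, sarcomeric light chains and sarcomeric heavy chains as percent of counts on genes, Mylpf counts per 100 counts of Myl1 and Myl4, and Mylk2 counts per 10000 Mylpf counts; all axes start at 0. The first 3 are lower in both EDA-A2 libraries (red) than in both Control libraries (blue), and the last is higher.

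Ratios between members, chosen after the values were seen, do not depend on the scaling of libraries. Mylpf counts per 100 counts of Myl1 and Myl4 were 63.1 and 63.6 in Control and 54.2 and 57.1 after EDA-A2, so the fast regulatory chain was lower relative to the essential pair in both treated libraries. Myl4 per 100 Myl1 counts gave 99.4 and 83.7 in Control and 87.0 and 85.8 after EDA-A2, which overlapped. Mylk2 counts per 10000 counts of Mylpf, its substrate, were 16.5 and 19.5 in Control and 34.0 and 31.9 after EDA-A2, a ratio of 1.83 between the means. Mylk4 counts per 100 Mylpf counts were 11.5 and 15.4 in Control and 20.9 and 19.2 after EDA-A2, a ratio of 1.49. For the 3 ratios that did not overlap the exact permutation p was 0.333, the smallest possible here.

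Among the other light chain family genes, 2 of the 4 tested were called lower and none higher. Of all genes tested, 2.13% were called lower and 2.45% higher. At an unadjusted p under 0.05, 2 of the 4 were lower and 1 higher, beside 1218 lower and 1154 higher of all genes tested. Myl9, the smooth muscle regulatory chain, had 624 and 738 normalized counts in Control and 485 and 476 after EDA-A2. The treated libraries were close together below both controls, and the log2 fold change was -0.50 (SE 0.10, 95% interval -0.73 to -0.28, adjusted p = 0.0105). Myl12a, a non-muscle regulatory chain, had 19439 and 16285 in Control against 13445 and 14592 after EDA-A2, and fell by 0.35 on the log2 scale (SE 0.08, adjusted p = 0.0268). Its near twin Myl12b had 623 and 838 in Control and 956 and 804 after EDA-A2. These values overlapped, and Myl12b was not called (log2 fold change 0.27, SE 0.12, adjusted p = 0.315). Without 1 library the call of Myl9 held only when EDA-A2 replicate 1 was left out and that of Myl12a only when EDA-A2 replicate 2 was left out, with adjusted p otherwise of 0.0772 to 0.256 and 0.187 to 0.360. The log2 fold change of Myl12a was -0.21 without Control replicate 1 and -0.47 without Control replicate 2. Small stretches of both genes, 5.17% and 8.58% of the canonical transcript, have a copy elsewhere, and both share exonic bases on the same strand with Gm49909, so the split of reads between them is uncertain. Mylk3, the cardiac light chain kinase, had 8, 16, 13 and 4 counts in Control 1, Control 2, EDA-A2 1 and EDA-A2 2, Myl10 had 6 to 11, and the atrial chain Myl7 had 0 in all 4.

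Genes that oppose or steer light chain phosphorylation were mostly not called. Of 17 tested of 18, 2 were called higher and 0 lower, with a median log2 fold change of 0.01. At an unadjusted p under 0.05, 2 were lower, beside 1218 of all genes tested. DESeq2 called 1 higher and 0 lower. Cdc42bpa, a kinase of the MRCK family that phosphorylates light chains and the phosphatase's targeting subunit, had 3467 and 3187 normalized counts in Control and 4265 and 4003 after EDA-A2 (log2 fold change 0.31, SE 0.07, adjusted p = 0.0192). Dapk2, a death-associated protein kinase that can phosphorylate the regulatory chain, had 2029 and 1658 in Control and 2386 and 2254 after EDA-A2 (0.33, SE 0.09, adjusted p = 0.0475). Both were higher in each treated library than in either control, and neither was called when any library was left out (adjusted p = 0.0571 to 0.288 for Cdc42bpa and 0.0937 to 0.320 for Dapk2). Dapk2 was also not called by DESeq2 (adjusted p = 0.0632), and its log2 fold change was 0.49 without Control replicate 1 and 0.19 without Control replicate 2.

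The light chain phosphatase was not called. Its catalytic subunit Ppp1cb had a log2 fold change of 0.01 (95% interval -0.14 to 0.15), and the targeting subunits Ppp1r12a, Ppp1r12b and Ppp1r12c had -0.03, -0.15 and -0.06. The phosphatase inhibitors Ppp1r14a, Ppp1r14b and Ppp1r14c had 0.52, 0.05 and 0.09, of which Ppp1r14a rested on 27 to 46 counts. Rhoa, a small GTPase, and its effector kinases Rock1 and Rock2, which inhibit the phosphatase, were also not called: Rhoa had 0.05, Rock1 had 0.13 and Rock2 had -0.20 (adjusted p = 0.125). Calm2 and Calm3, which encode calmodulin, the activator of the light chain kinases, had -0.03 and -0.04. The remaining kinases Dapk3 and Cdc42bpb had -0.07 and -0.11, and none of the genes in these sentences was called.

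**Figure D4:**
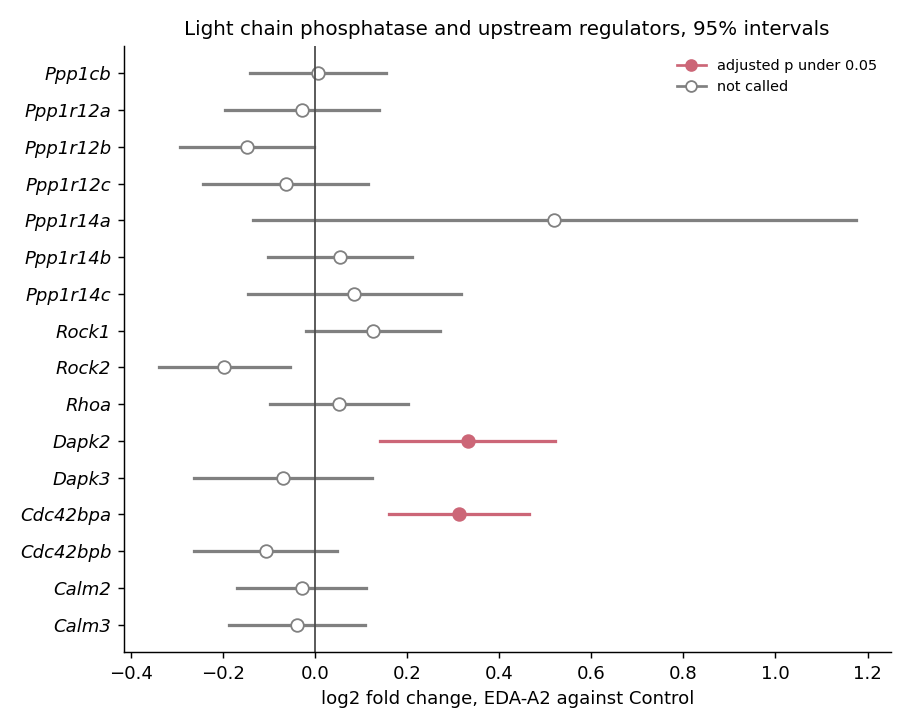
Log2 fold change, EDA-A2 against Control, with 95% intervals, for the tested genes of the light chain phosphatase and its upstream regulators that are named in the text; filled red points passed an adjusted p of 0.05. Cdc42bpa and Dapk2 lie above 0 at 0.31 and 0.33, and the others, apart from Ppp1r14a, lie between -0.20 and 0.13.

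Markers of other cells and of the myotube itself were read beside these values. Of 6 myotube markers, all tested, 1 was called lower (Acta1), and their summed normalized counts were 319083 to 350704 in Control and 257322 to 269999 after EDA-A2. Acta1 made up most of that difference (186033 and 173942 in Control, 119001 and 132306 after EDA-A2), while Des, Mymk and Myog, with log2 fold changes of -0.02, -0.01 and -0.18, and Ttn and Ckm, with -0.25 and -0.36, were not called. In bulk RNA, fewer myotubes and less RNA per myotube cannot be told apart, and the part of this shift in the light chain values was not tested. Myoblast markers summed to 15588 to 16160 in Control and 16599 to 16640 after EDA-A2, with Vcam1 called higher and Cdh15 lower among 5 tested of 6. Most of that sum was Sdc4 (9622 and 9402 in Control, 10895 and 10799 after EDA-A2). Sdc4 and Vcam1 had log2 fold changes of 0.19 and 0.53, and Pax7, Myf5 and Cdh15 had -0.17, -0.24 and -0.47. Fibroblast markers gave 50599 to 52514 against 47967 to 48784, with 1 of 6 tested called lower (Pdgfrb) and with Lum and Thy1 at 0. Most of the fibroblast sum was Col3a1 (39997 and 46066 in Control, 42197 and 41785 after EDA-A2). Of the 6 tested, 2 had a log2 fold change above 0 (Dcn at 0.48 and Pdgfra at 0.16, neither called) and 4 below. Smooth muscle and pericyte markers gave 53965 to 56732 against 57040 to 58735, with 1 of 9 tested called lower (Tagln). Most of that sum was Des, which is also counted above as a myotube marker (31073 and 29977 in Control, 30134 and 30027 after EDA-A2). Acta2 had 15717 and 19186 in Control and 21210 and 19695 after EDA-A2, and was not called (log2 fold change 0.23). Of the 9 tested, 3 had a log2 fold change above 0 and 6 below. The defining smooth muscle gene Myh11 had 5 counts in every library. Cardiac markers gave 57518 to 64406 against 46652 to 52143, nearly all of it Tnnt2, which embryonic skeletal muscle also expresses, and 2 of 3 tested were called lower (Tnnt2 and Myh6). Dividing cell markers overlapped (20541 to 24360 against 22354 to 22790), with none of 5 called. Macrophage and endothelial markers were low, at 239 to 371 and 27.8 to 32.3 over all libraries, with none called and with Emcn at 0.

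Exons of several members are shared with genes on the opposite strand: 358 bases for Mylpf, 353 for Myl4, 161 for Myl6, 1389 for Myl6b, 60 for Myl2, 95 for Myl3 and 772 for Mylk. The library kit keeps strand, but the strand setting used in counting is not given in the sources used here. Without it, reads of a member and of its antisense partner could not be told apart. No such overlap was annotated for Myl1, Mylk2 or Mylk4.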

How the data were processed

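RNA was sequenced from 4 libraries of mouse primary myotubes, 2 Control and 2 EDA-A2. Per the submitters' processing notes, reads were checked with FastQC 0.11.9 and MultiQC 1.12, trimmed with Trim Galore 0.6.5, mapped to GRCm39 with STAR 2.7.3a and counted per gene with HTSeq 0.11.1. The authors deposited raw counts, without normalization or pooling. HTSeq's summary lines (no feature 6.68% to 7.4%, not unique 4.56% to 4.76%) were left out of library sizes.

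Counts were fitted in R 4.3.3 with edgeR 4.0.16 (TMM, filterByExpr set to at least 10 counts and a total of at least 15, glmQLFit and glmQLFTest, condition as the only term), and Benjamini-Hochberg adjusted p over 15173 genes were held to a threshold of 0.05. Of all genes, 371 were called higher and 323 lower. Standard errors are the log2 fold change over the square root of F, and counts were normalized to the mean effective library size. DESeq2 1.42.0 was an alternative, and both were run on simulated counts with changes of 1 on the log2 scale. Of the changed genes, edgeR recovered 94% and DESeq2 82.5%. Recovery of smaller changes, such as those of the called light chains, was not tested. TPM, class shares and ratios were computed from the counts and lengths of GENCODE M39, which matched 52610 genes, and were compared by two-sided exact permutation tests. Copies in the genome were searched with blastn 2.17.0.

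All members were described, and from each other list the called genes, at most 5 by smallest p, with the light chain family and phosphatase lists in full, except that 1 tested gene of the latter is not reported here by name. Members and lists were chosen with earlier results of these data known. Alternatives were other scalings and filters, protein-coding genes alone, the replicate number as a block, other lengths and leaving out each library.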

Additional observations from a re-analysis of the deposited data

How the results depend on the processing

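The totals were near equal, and Myl2, Mylk3 and Myl3 had the fewest counts among the members and light chain kinases. Mylpf was called lower in every setting that kept all 4 libraries. Across all genes, scaling by total counts gave 194 lower, no filter on low counts gave 64 higher and 22 lower, and leaving out 1 library gave 0 to 238 higher and 0 to 170 lower. A left-out fit has 1 residual degree of freedom and assumes that the lone library varies like the other condition. Members called lower numbered 2 with total counts, 4 with at least 10 counts in every library, 1 with no filter and 0 to 1 with a library left out. The members' median was -0.21 with total counts and -0.23 to -0.27 with a library left out. No paired source is stated, the deviations of same-numbered libraries correlated at 0.128 over 11354 genes, and with the replicate block 529 genes were lower, Myl1 was not called (adjusted p = 0.0622) and Myl2 was (-1.10, adjusted p = 0.0259).

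With no filter, the other light chains, thick filament partners, differentiation genes and regulators gave 0 called, and the heavy chains 1. Total counts gave 1 other light chain lower and 2 differentiation genes higher. The regulators gave 1 higher with upper quartile factors, DESeq2 or protein-coding genes. With a library left out, calls were 0 to 1 other light chains lower, 0 regulators higher, 0 to 7 heavy chains, 0 to 2 partners and 0 to 3 differentiation genes lower, and 0 to 1 differentiation genes higher. The percent change of the light chain share was -22.4 with TMM library sizes, -22.1 without Myl1, and -17.5 to -21.1 with a library left out. The Mylpf share of its class changed by -0.369 points with canonical lengths and -1.29 without lengths, and that of Myl12a by 1.0 without lengths.

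Signs turned for uncalled genes alone. Total counts gave Ppp1r12a 0.029, Calm2 0.026 and Calm3 0.016. With a library left out, Mylk ranged from -0.16 to 0.053, Mylk4 from -0.057 to 0.27, Mylk3 from -1.60 to 0.059, Ppp1cb from -0.048 to 0.059, Ppp1r12a from -0.11 to 0.059, Ppp1r14c from -0.11 to 0.31, Rhoa from -0.016 to 0.13, Calm2 from -0.060 to 0.00099 and Calm3 from -0.092 to 0.019. The cause of these shifts was not tested.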

Other observations

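Of the heavy chains, those called lower were embryonic, neonatal, slow and cardiac genes, and isoforms were not tested against each other. Of 11 tested of 14, 5 were called lower by edgeR and 0 higher, beside 2.13% lower and 2.45% higher of all genes tested. At an unadjusted p under 0.05, 9 were lower and 0 higher, beside 1218 lower and 1154 higher of all genes tested. The median log2 fold change of these heavy chains was -0.57. Myh3, the embryonic heavy chain, had 236852 and 233601 normalized counts in Control and 160086 and 156193 after EDA-A2 (log2 fold change -0.57, SE 0.07). Myh8, the neonatal gene, had 92100 and 93981 against 74135 and 68478 (-0.38, SE 0.07). Both were lower in each treated library than in each control. The slow and cardiac genes Myh7, Myh7b and Myh6 had -0.86, -0.66 and -1.32. Genes not called included Myh1 at -0.25 and Myh13 at -1.09, both without overlap between conditions, and Myh4 at 0.01. Myh9 and Myh10, also not called, had -0.0012 and -0.19. With the replicate block, 7 heavy chains were called lower. Myh2, the fast oxidative gene, had 270 and 71.6 in Control against 56.9 and 63.9 after EDA-A2, with Control replicate 1 apart from the others as it was for Myl2, and was not called (adjusted p = 0.0591).

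Of 11 listed partners of the thick filament, Murc was not found under that symbol, and 9 were tested, with a median of -0.20. At an unadjusted p under 0.05, 5 were lower and 1 higher, beside 1218 lower and 1154 higher of all genes tested. Of the 9 tested, 4 were called lower and 0 higher. These were the small heat shock protein Hspb7 (-0.56), the myosin methyltransferase Smyd1 (-0.36), the myosin binding protein Mybph (-0.34) and the M-band protein Myom3 (-0.29). The myosin chaperone Unc45b, which was not called, had 0.04. Without either Control library edgeR called none of the heavy chains or partners, and without an EDA-A2 library it called 7 or 5 heavy chains and 2 or 1 partners. Of 13 genes of muscle differentiation, 3 were called lower and 1 higher, beside 2.13% lower and 2.45% higher of all genes tested. Their median was -0.18. Acta1 and Actc1, the sarcomeric actins, had -0.52 and -0.47, the myogenic factor Myf6 had -0.63, and the fusion protein Mymx had 1.22, with 2619 and 2652 normalized counts in Control and 6193 and 6120 after EDA-A2.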
